A study of Solanum tuberosum with 72 samples.

Results

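VPE2 encodes a potato vacuolar processing enzyme, and its transcript was followed here through cold, heat and salt in leaf and root. The gene was taken as every spot that the array's probe annotation assigns to VPE2, which gave 4 spots of 2 cDNA clones, called clone A and clone B here. They stand among 32448 spots, 11037 clones with a value and 430 genes that carry a single symbol. RefSeq lists VPE1 as another name of the same gene. The clones were taken by annotation, but the gene itself was selected on measured log2 values of these arrays: opposite cold values in leaf and root, and low root heat values at all times. The other values were known by then too, though the gene was not chosen for them. Cold and root heat values are therefore given as a description with no test, and only leaf heat, leaf salt and root salt values were tested.

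Vacuolar processing enzymes, also called asparaginyl endopeptidases or legumains, are cysteine proteases of the plant vacuole. They cut precursor proteins after asparagine and aspartate, which matures storage proteins and other vacuolar enzymes. Members of the family are also known for a caspase-1-like activity in plant cell death that starts with collapse of the vacuole, and vegetative members are known to respond to stress and senescence.

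Seedlings of potato variety Gilroy were raised from true seed for 5 weeks on rafts over hydroponic medium, in days of 16 h light at 25 °C. The medium was then exchanged for medium at 4 °C (cold), medium at 35 °C (heat), medium with NaCl (salt) or plain fresh medium (no stress), and plants were harvested after 3, 9 or 27 h. The salt dose is 150 mM in the name of the sample source and 100 mM in the description of the treatment. Each of the 24 groups (2 tissues, 4 treatments, 3 times) held 3 two-colour arrays, each of RNA pooled from 6 plants, and "leaf" stands for aerial tissue, since the labels say that roots and aerial parts were separated. The Cy5 channel held control RNA of the same tissue and time, pooled from 6 boxes. No genotype differed between groups, since all plants were Gilroy.

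Every value is a log2 ratio, read as treated plants over control RNA, so that 1 stands for a doubling. That direction is likely but not settled: the labels name the treated plants as the query, but the titles name the control first. UCP (an uncoupling protein) had 0.70 and 0.80 for its clones in leaf cold at 27 h, AOX (alternative oxidase) 1.32 in root cold and StWIPK (a wound-induced protein kinase) 0.98 in leaf cold and 2.28 in root cold, all at 27 h and higher in that direction. AOX was -0.04 in leaf cold (limma adjusted p = 0.927) and the UCP clones 0.22 and 0.24 in root cold (0.203 and 0.199), and these genes were looked up after the values were seen. If the ratio ran the other way, each higher would read lower and each lower higher. Array pairs correlated at -0.33 or above, and 1 pair of 2556, a leaf cold 27 h and a leaf heat 9 h array, fell under -0.3. Differences below are stress minus no stress at the same tissue and time, with the standard error (SE) of a limma model over the 36 arrays of a tissue.

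Clone A carried nearly all of the information. It had a value on 67 of 72 arrays, all 36 of leaf and 31 of 36 of root, and its 2 spots correlated with r = 0.997 over 65 arrays, with a median absolute gap of 0.06. The root arrays without a clone A value were 1 each of cold 3 h, cold 27 h, heat 3 h, no stress 3 h and salt 27 h. They were replicate 2, except for replicate 1 in cold 27 h. These 5 arrays had values for 8941 to 9657 clones (median 9391), against 8624 to 9889 (median 9152) on the other 31. Why clone A lacked a value on them was not tested. The root cold and root heat differences at 3 h thus rest on replicates 1 and 3. Clone B had a value on 32 leaf arrays and only 2 root arrays.

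In leaves, VPE2 clone A was higher in cold than without stress at 9 and 27 h. At 9 h the 3 cold arrays stood at 2.24, 2.24 and 2.29, against 0.93, 0.73 and -0.38 on the no-stress arrays. The cold arrays were the tightest group of the 24, with an SD of 0.03, while the no-stress arrays had an SD of 0.70. The difference was 1.82 ± 0.34 (SE, n = 3 each), a 3.54-fold level in cold. At 27 h the cold arrays read 1.05, 0.98 and 1.92, against 0.71, 0.10 and 0.68, again without overlap, and the difference was 0.82 ± 0.34, or 1.76-fold (1.32 when set against 0, 0.52 without cold replicate 3). At 3 h the cold arrays read -0.01, 0.43 and 0.57, against 0.25, 0.05 and 0.26, the ranges overlapped and the difference was 0.14 ± 0.34. The leaf cold values therefore peaked at the middle time. Among all clones tested, the 9 h value stood 82nd from the top of 9419 and the 27 h value 491st of 9634. Of all clones, 16.8% were called at 3 h, 22.6% at 9 h and 21.6% at 27 h (limma, Benjamini-Hochberg adjusted p under 0.05).

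In roots, the cold differences had the opposite sign, and the largest came at 3 h. At 3 h the 2 cold arrays with a value read -1.74 and -2.0, against -0.09 and 0.78 on the 2 no-stress arrays. The groups stood far apart, and the difference was -2.21 ± 0.46 (SE, n = 2 each), a 0.216-fold level. At 9 h the cold arrays read 0.09, -0.39 and -0.71, against 1.27, 0.54 and -0.12, with overlap and a difference of -0.90 ± 0.38. At 27 h the 2 cold arrays read -0.70 and 0.00, against -0.07, 0.43 and 0.32, also overlapping, and the difference was -0.58 ± 0.42. The root cold values were thus low at 3 h and nearer to those without stress later. By rank from the bottom, the 3 values were 64th of 9123, 396th of 8869 and 1157th of 8938 clones, in comparisons that called 13.2%, 26.3% and 39% of all clones. Leaving out 1 array moved the 9 h difference between -1.24 (without no-stress replicate 3) and -0.55 (without no-stress replicate 1) and the 27 h difference between -0.93 (without cold replicate 3) and -0.23 (without cold replicate 2). Set against 0 in place of the no-stress arrays, the 9 h value was -0.34, since the no-stress roots at 9 h averaged 0.57 ± 0.70 (SD, n = 3).

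**Figure D1:**
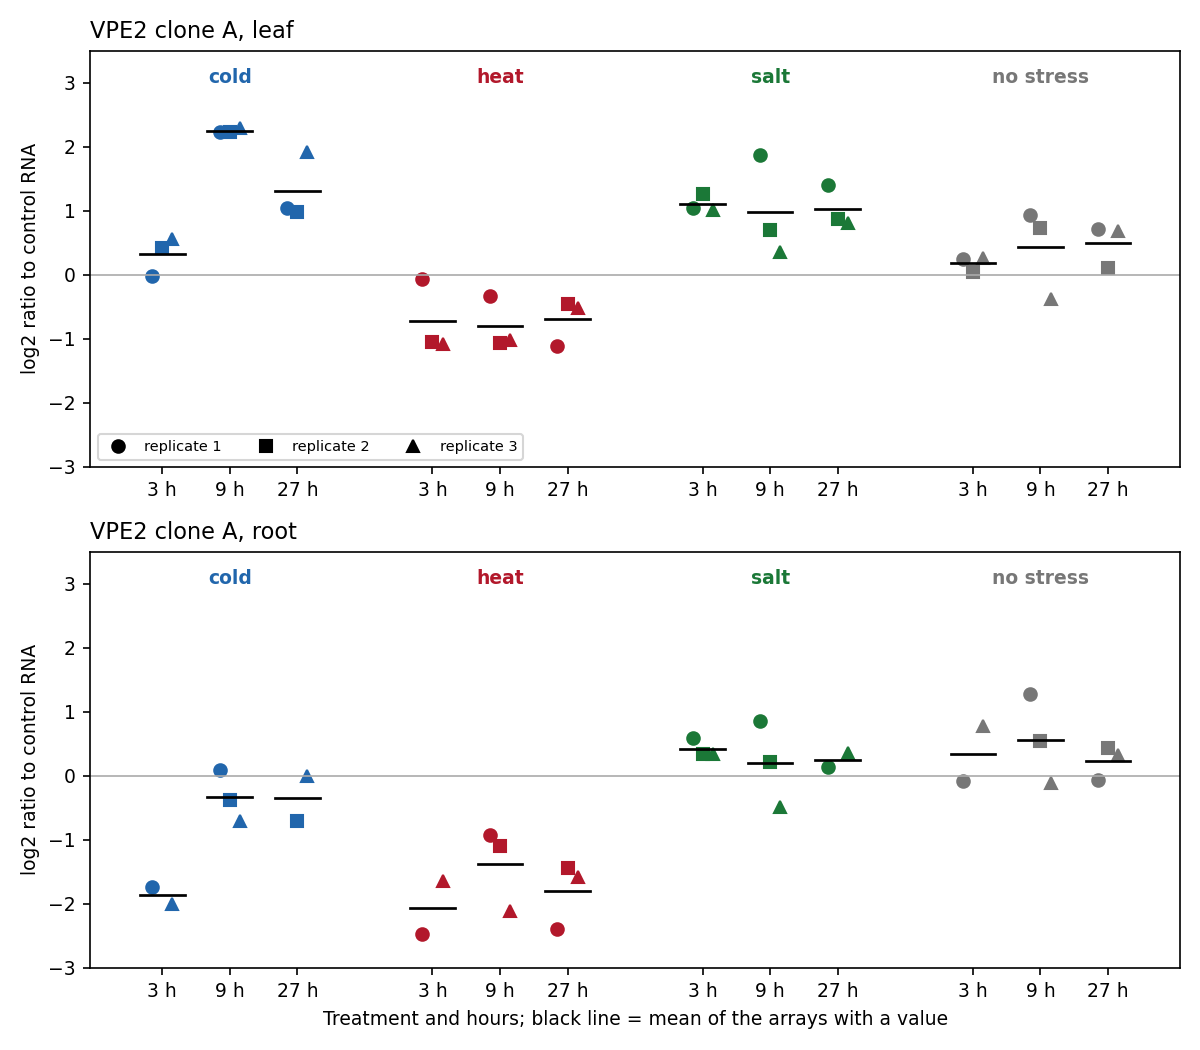
Log2 ratio of VPE2 clone A on each array (vertical axis) by treatment and hours (horizontal axis), for leaf (top) and root (bottom); symbols are replicate numbers and black lines are group means. Leaf cold 9 h is the highest group, near 2.25, root heat and root cold 3 h arrays lie below -0.9, and 5 root arrays have no value.

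Root heat values of VPE2 clone A were low at all times, and the 3 h group had the lowest mean of the 24. At 3 h the 2 heat arrays with a value read -2.47 and -1.64, against -0.09 and 0.78 without stress. At 9 h the 3 heat arrays read -0.92, -1.09 and -2.12, against 1.27, 0.54 and -0.12. At 27 h they read -2.40, -1.43 and -1.58, against -0.07, 0.43 and 0.32. All 8 heat arrays stood below all 8 no-stress arrays, and the groups overlapped at none of the 3 times. The differences were -2.41 ± 0.46, -1.94 ± 0.38 and -2.03 ± 0.38 at 3, 9 and 27 h, which are 0.189-, 0.26- and 0.245-fold levels. VPE2 clone A was the lowest of 8974 clones at 3 h, 9th lowest of 8906 at 9 h and 45th lowest of 8975 at 27 h. The share of all clones called was 7.25%, 5.82% and 20% at these times (1795 clones at 27 h, 706 without heat replicate 1). Since VPE2 was picked for these values, its place at the bottom is a description.

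Leaf heat was not what the gene was picked for, and clone A read below the no-stress arrays there too. At 3 h the heat arrays read -0.07, -1.05 and -1.07, against 0.25, 0.05 and 0.26 without stress. At 9 h they read -0.33, -1.06 and -1.01, against 0.93, 0.73 and -0.38. At 27 h they read -1.10, -0.45 and -0.51, against 0.71, 0.10 and 0.68. All 9 heat arrays were below 0, whereas 8 of the 9 no-stress arrays were above it, and the ranges overlapped at 9 h alone, through 1 no-stress array. The differences were -0.92 (95% confidence interval -1.61 to -0.22, adjusted p = 0.267) at 3 h, -1.23 (-1.93 to -0.53, adjusted p = 0.154) at 9 h and -1.19 (-1.89 to -0.49, adjusted p = 0.113) at 27 h, by limma with Benjamini-Hochberg adjustment over all clones. None passed 0.05, in comparisons that called only 0.679%, 0.18% and 0.644% of all clones. Of all clones, clone B had the 5927th lowest value of 9429, the 7831st lowest of 9448 and the 848th lowest of 9934. Clone A had the 28th lowest value of 9429, the 6th lowest of 9448 and the 10th lowest of 9934. With array weights in the fit, the 9 h and 27 h values passed, at -1.38 and -1.19 (adjusted p = 0.013 and 0.026).

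A mean over the 3 times was chosen as a summary after the values were seen. In leaf heat it was -0.03 for clone B (95% interval -0.28 to 0.22, limma adjusted p = 0.928). For clone A it was -1.11 ± 0.20 (SE, 95% interval -1.52 to -0.71), with 9 arrays in each arm. This passed with an adjusted p of 0.000586 in limma, where 8.48% of all clones were called. These tests share no-stress arrays with the leaf cold comparisons for which the gene was picked. The leaf heat values were also known by then, so the p-value of this mean is not that of a test set in advance. The effect at 27 h less that at 3 h was -0.27 (-1.26 to 0.71, adjusted p = 1.0), and 0% of all clones passed that comparison, with 199 of 9335 at an unadjusted p under 0.05.

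Salt was the stress in which clone A was tested in both leaf and root. In leaves at 3 h the salt arrays read 1.04, 1.26 and 1.02, against 0.25, 0.05 and 0.26 without stress. At 9 h they read 1.87, 0.70 and 0.35, against 0.93, 0.73 and -0.38. At 27 h they read 1.41, 0.88 and 0.82, against 0.71, 0.10 and 0.68. All 9 leaf salt arrays were above 0, and the groups overlapped at 9 h but not at 3 or 27 h. The differences were 0.92 (95% interval 0.22 to 1.61, adjusted p = 0.342), 0.55 (-0.15 to 1.25, adjusted p = 0.36) and 0.53 (-0.17 to 1.23, adjusted p = 0.367). None passed, while 0.808%, 7.48% and 11.9% of all clones did. Without salt replicate 1 or no-stress replicate 3 the 9 h difference was 0.10 or 0.14, and without salt replicate 1 or no-stress replicate 2 the 27 h difference was 0.34 or 0.33. Set against 0 in place of the no-stress arrays, the values were 1.10, 0.98 and 1.03 and passed (adjusted p = 0.00387, 0.00309 and 0.00158). The mean over the 3 times, again chosen after the values were seen, was 0.67 ± 0.20 (SE, 95% interval 0.26 to 1.07). Its limma adjusted p was 0.014, in a comparison that called 22.8% of all clones. As for leaf heat, this is not the p-value of a test set in advance. The leaf salt tests share no-stress arrays with the leaf cold comparisons for which the gene was picked.

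In roots no salt effect on VPE2 clone A was detectable with these arrays. The root salt tests share no-stress arrays with the root cold and root heat comparisons for which the gene was picked. At 3 h the salt arrays read 0.58, 0.34 and 0.33, against -0.09 and 0.78 on 2 no-stress arrays. At 9 h they read 0.86, 0.21 and -0.48, against 1.27, 0.54 and -0.12. At 27 h the 2 salt arrays read 0.13 and 0.36, against -0.07, 0.43 and 0.32. The groups overlapped at each time, and the differences were 0.07 (95% interval -0.80 to 0.95), -0.37 (-1.16 to 0.41) and 0.02 (-0.86 to 0.89), with adjusted p of 0.925, 0.666 and 0.99 where 21.5%, 4.37% and 2.4% of all clones were called. The mean over times was -0.09 ± 0.24 (SE, adjusted p = 0.813), in a comparison that called 26.2% of clones. The salt effect in leaf less that in root, averaged over times, was 0.76 (95% interval 0.13 to 1.39), which did not pass (limma adjusted p = 0.18), and 4.13% of all clones passed. The salt effect at 27 h less that at 3 h was -0.38 ± 0.48 in leaf (adjusted p = 0.924) and -0.06 ± 0.60 in root (adjusted p = 0.976), and 0.128% and 2.89% of clones passed.

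Of the 9 comparisons tested singly for clone A, 0 passed limma's adjusted threshold and 4 had an unadjusted p under 0.05: leaf heat at all 3 times and leaf salt at 3 h. The arrays are samples of pooled plants, from an experiment that the labels describe as carried out independently 3 times, and 3 arrays a group limit the precision.

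**Figure D2:**
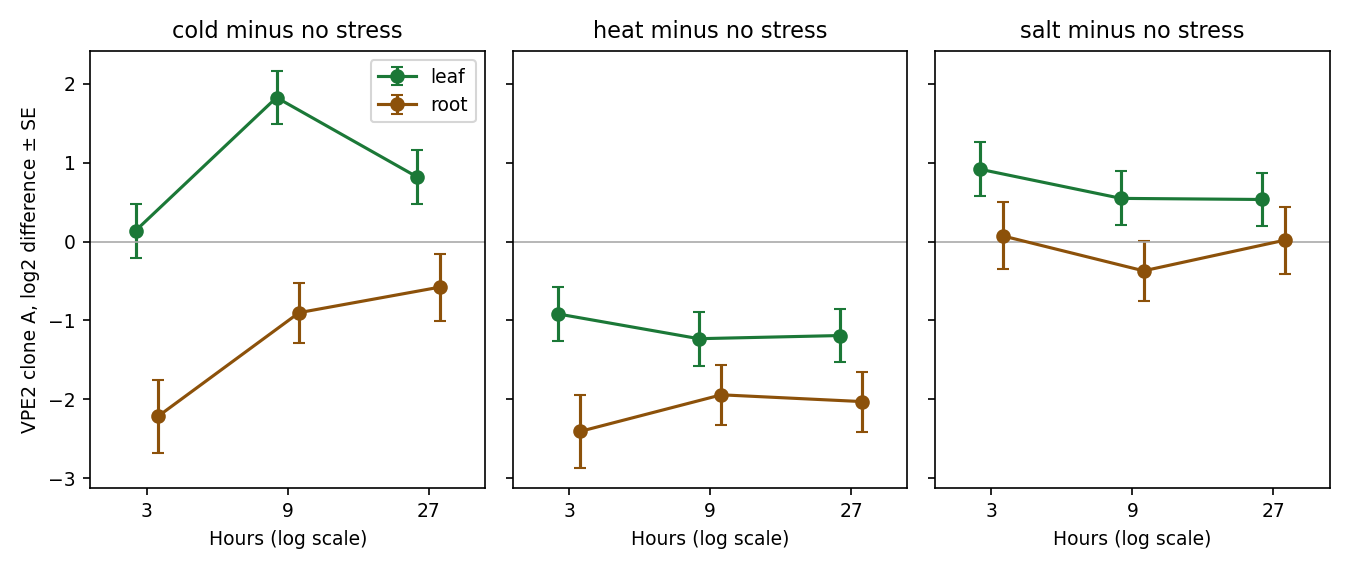
Stress minus no stress for VPE2 clone A (log2, vertical axis, with SE bars) against hours, in leaf and root, for cold, heat and salt. In cold the tissues lie on opposite sides of 0 at 3, 9 and 27 h, with leaf at 0.14 ± 0.34 (SE) at 3 h. In heat both lie below 0 at all times, and in salt leaf lies at 0.92, 0.55 and 0.53 with root near 0.

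Ordered by mean, the 24 groups ran from leaf cold 9 h at 2.25 ± 0.03 (SD, n = 3) to root heat 3 h at -2.06 ± 0.59 (SD, n = 2). Leaf cold 27 h (1.32 ± 0.52) and the 3 leaf salt groups (1.10 ± 0.14, 1.03 ± 0.33 and 0.98 ± 0.79 at 3, 27 and 9 h) followed the highest. The middle held leaf cold 3 h (0.33 ± 0.30), the root salt groups (0.20 to 0.42) and the no-stress groups (0.19 to 0.57). Below 0 came root cold 9 and 27 h (-0.34 ± 0.40 and -0.35 ± 0.50), the leaf heat groups (-0.69 ± 0.36, -0.73 ± 0.57 and -0.80 ± 0.41 at 27, 3 and 9 h), root heat 9 and 27 h (-1.38 ± 0.65 and -1.80 ± 0.52) and root cold 3 h (-1.87 ± 0.19, n = 2). Of the 23 neighbouring pairs in this order, 2 were separated by more than the larger SD: leaf cold 9 h and leaf cold 27 h, by 0.94, and leaf no stress 3 h and root cold 9 h, by 0.53. Only the first of these pairs did not overlap. Since each ratio is to control RNA of its own tissue and time, the order ranks ratios and not transcript amounts.

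Clone B showed smaller values than clone A. On the 32 leaf arrays with both, the clones had the same sign on 24, with r = 0.502, and the median absolute value was 0.85 for clone A and 0.22 for clone B. The 2 spots of clone B correlated with r = 0.566 over the 18 arrays where both had a value. In leaf cold at 9 h, clone B read 0.29, 0.38 and 0.55, against -0.41, 0.11 and -0.86 without stress, a difference of 0.79 ± 0.19 (SE, n = 3 each) without overlap. At 3 h in cold its difference was -0.33 ± 0.19, with the sign opposite to that of clone A, and at 27 h it was -0.04 ± 0.21.

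Clone B did not carry the low leaf heat values of clone A. In heat at 3 h it read 0.30, -0.17 and 0.31, against 0.08, 0.01 and 0.12 without stress, and the groups overlapped. Its differences in leaf heat were 0.07, 0.18 and -0.34 at 3, 9 and 27 h, with limma adjusted p of 0.945, 0.903 and 0.572. Over the 3 times its mean was -0.03 (95% interval -0.28 to 0.22, adjusted p = 0.928). In leaf salt the clone B differences were 0.26 at 3 h and 0.07 at 27 h (adjusted p = 0.815 and 0.905), and at 9 h 1 salt array had a value, -0.45. In root it had 1 value in heat at 27 h (-0.23) and 1 in salt at 27 h (-0.01). Spotted cDNA can bind near-identical members of a gene family, and which transcripts each clone reports was not tested.

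**Figure D3:**
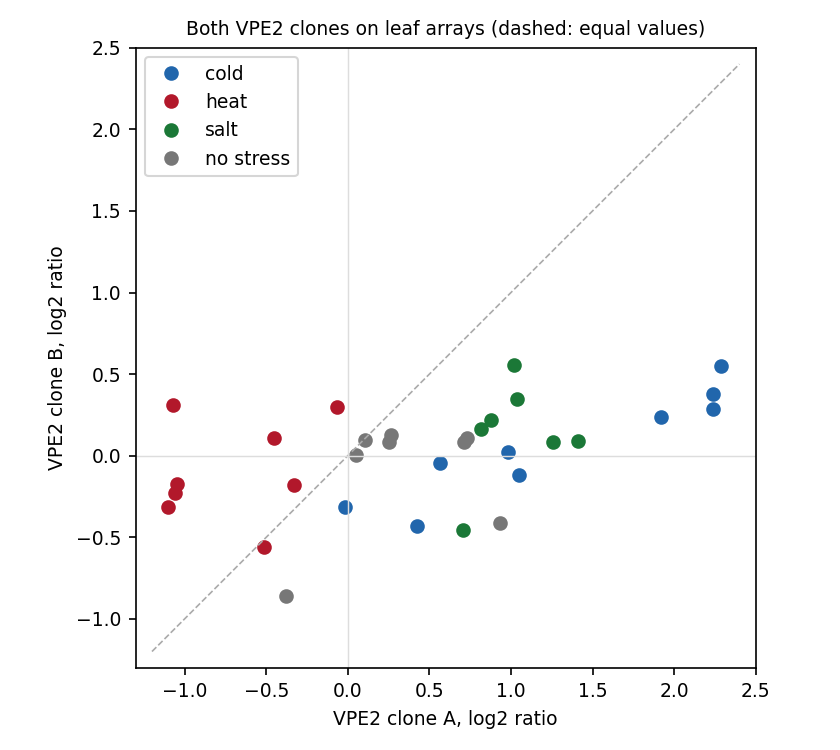
Log2 ratio of clone B (vertical axis) against clone A (horizontal axis) on the 32 leaf arrays with both, by treatment; the dashed line marks equal values. Clone A spans -1.10 to 2.29 and clone B -0.86 to 0.56, and the heat arrays low in clone A lie on both sides of 0 in clone B.

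Roots are not green, and 15 clones of light-harvesting and photosystem genes (4 of cab1, 6 of PSBR, 2 of PSBO, 3 of psbP) were set beside the root values. A ratio cannot show how much of such a transcript a root held. Their median per array lay between -1.12 and -0.01 in root heat at 3 h, between -1.14 and 0.38 at 9 h and between -3.01 and -0.67 at 27 h, against -0.29 to 0.30 without stress over all times. In root cold the array medians ran from -1.01 to -0.25 at 3 h, -1.25 to -0.60 at 9 h and -2.42 to -1.43 at 27 h. Of the tests of these marker clones in root, limma called 20 lower and 2 higher of 39 in cold, 8 lower and 0 higher of 41 in heat and 0 lower and 2 higher of 38 in salt. Of all clones, 13.2% to 39% were called in root cold, 5.82% to 20% in root heat and 2.4% to 21.5% in root salt, depending on the time. In root heat, 0 of 13 were called at 3 h and 0 of 14 at 9 h (0 and 2 at an unadjusted p under 0.05).

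In root cold the VPE2 clone A values were lowest at 3 h and the markers at 27 h. On the 8 root heat arrays with a clone A value, the markers stood at -3.01, -1.14, -1.12, -0.99, -0.67, -0.05, -0.01 and 0.38 (the last from 8 of the 15 clones). In the same order clone A read -2.40, -0.92, -2.47, -1.58, -1.43, -2.12, -1.64 and -1.09. Over 31 root arrays, which share reference RNA within a time, the 2 measures had r = 0.416, and over 36 leaf arrays r = -0.275. The leaf medians came from 5 to 13 of the 15 marker clones on an array, so the 2 r do not rest on the same clones. The part of green tissue in the VPE2 values was not tested. In whole organs, fewer cells of a type and less transcript per cell cannot be told apart.

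**Figure D4:**
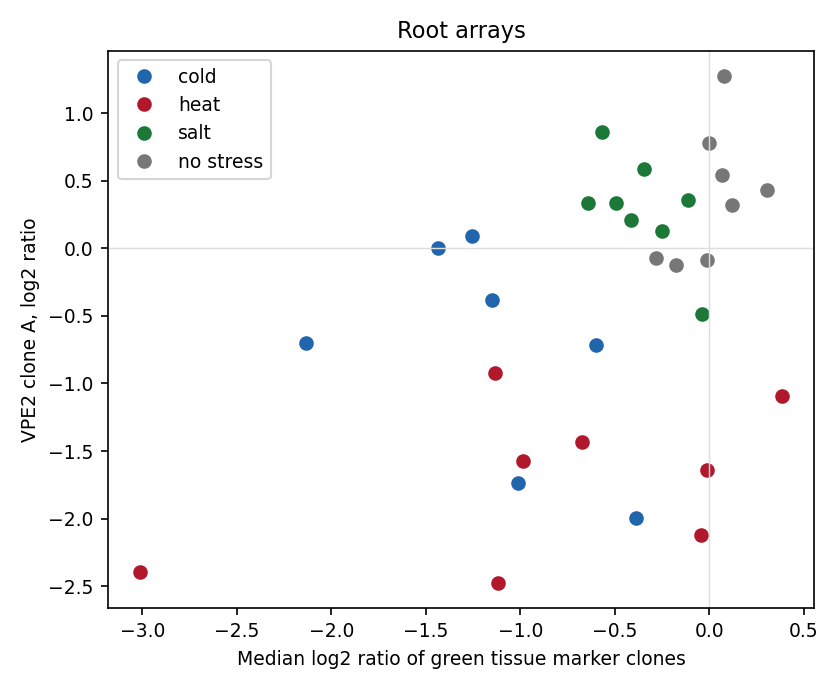
VPE2 clone A (vertical axis, log2 ratio) against the median log2 ratio of the green tissue marker clones (horizontal axis) on 31 root arrays, by treatment. All 8 heat arrays lie below -0.9 in VPE2, with markers from -3.01 to 0.38.

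Among 167 named genes, cyp was the most like VPE2 clone A over the arrays. Its best clone had r = 0.851 over the 67 arrays with clone A (0.89 over 36 leaf and 0.78 over 31 root arrays), and the 4 cyp clones ran from 0.86 to 0.906 in leaf. It was followed by PKIN1 (r = 0.711), a SNF1-related protein kinase of energy signalling, gln (0.708), STUGE45 (0.636), a UDP-glucose epimerase that makes UDP-galactose, and RA215 (0.631). These are descriptions of arrays that share dye and reference RNA, with the tissue and treatment groups pooled. Clones of Cyp, a separate gene of similar name, ran from 0.242 to 0.511 in leaf.

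Since these genes were picked for their likeness over the same arrays, shared signs with VPE2 follow from the choice, and their values are given as a description. The 2 cyp clones with the highest r were 1.05 and 0.97 in leaf cold at 9 h. In root they were -1.37 and -1.22 in cold and -0.89 and -0.78 in heat, both at 3 h. VPE2 clone A was 1.82, -2.21 and -2.41 at these points, and clone B was 0.79 in leaf cold at 9 h. In leaf heat the values of these cyp clones ran from -0.28 to -0.70. STUGE45 was 3.06 in leaf cold at 9 h, -0.33 in root cold at 3 h and 1.3 at 27 h. PKIN1 was 0.88 in leaf cold at 27 h and -0.51 in root heat at 9 h. In root cold, however, PKIN1 was 0.03 at 3 h and 0.37 at 27 h, where VPE2 clone A was -2.21 and -0.58. In root salt at 3 h PKIN1 was 0.73, where clone A was 0.07.

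At the other end, the genes least like VPE2 were StSSR1 (r = -0.638), pyrB (-0.626), the aspartate carbamoyltransferase of pyrimidine synthesis, GPI (-0.616), a glucose-6-phosphate isomerase, DHAR2 (-0.597), a dehydroascorbate reductase that recycles vitamin C, and SI1 (-0.557). Their opposite signs follow from the choice in the same way. StSSR1 was 0.75 at 9 h and 0.95 at 27 h in root heat. DHAR2 was 0.59 and 0.60 there and -0.88 in leaf cold at 9 h. In root cold at 9 h, however, DHAR2 was -0.84, where VPE2 clone A was -0.90.

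Within leaf arrays alone, cyp (0.906) and PKIN1 (0.81) again led, ahead of AdoMetDC (0.743), the S-adenosylmethionine decarboxylase of polyamine synthesis, the ethylene receptor ERS (0.742) and RSI5 (0.742), and the lowest were DD (-0.786), DHAR2 (-0.75), StSSR1 (-0.68), PEST2 (-0.677) and STP-1 (-0.675). Within root arrays cyp (0.78) was followed by NtK-1-like (0.725), the inositol polyphosphate kinase IPMK (0.70), the glycolytic enzyme GAPDH (0.686) and the late embryogenesis abundant gene Lea (0.676). The lowest in root were StSSR1 (-0.748), the mitochondrial import receptor TOM20 (-0.73), DHAR (-0.689), pyrB (-0.661) and SI1 (-0.656). For IPMK and TOM20 the r in leaf was near 0, at -0.145 and -0.011. A gene with several clones is given by its most extreme clone, and the clones could differ. In leaf, AdoMetDC clones ran from -0.267 to 0.743. In root, GAPDH clones ran from -0.097 to 0.686 and DHAR clones from -0.689 to -0.068.

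**Figure D5:**
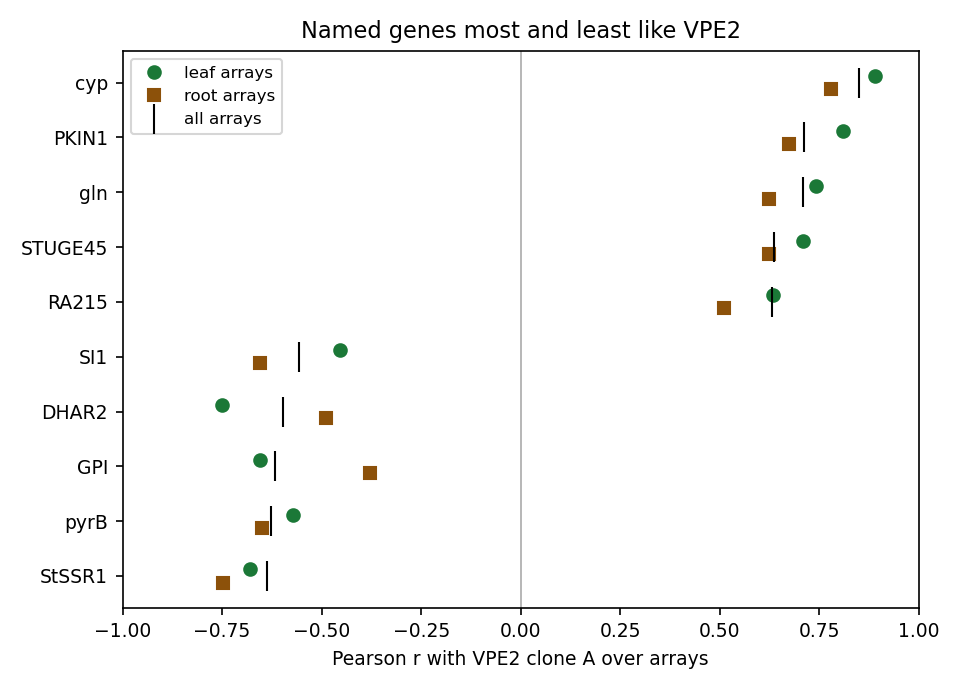
Pearson r with VPE2 clone A over all arrays (line), leaf arrays (circles) and root arrays (squares) for the 5 named genes with the highest and the 5 with the lowest r over all arrays. The gene cyp stands at 0.851 and StSSR1 at -0.638.

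No other gene of the vacuolar processing family carried a name on the array. Genes around the vacuole's proteases were therefore read from lists matched by symbol, counting each clone at each time as 1 test. Of the clones of proteinase inhibitors and leucine aminopeptidase, which block or carry out protein breakdown, limma called 0 higher and 1 lower of 40 tests in leaf cold, 0 of 39 in leaf heat (3 at an unadjusted p under 0.05) and 0 higher and 1 lower of 40 in leaf salt. Over the 3 times, 16.8% to 22.6% of all clones were called in leaf cold, 0.18% to 0.679% in leaf heat and 0.808% to 11.9% in leaf salt. Both calls were clones of PIN-II, proteinase inhibitor II, at 27 h, with -1.18 in cold and -1.43 in salt. There VPE2 clone A stood at 0.82 and 0.53, and clone B at -0.04 and 0.07. The clone A value in salt did not pass (limma adjusted p = 0.367), and its cold value was not tested. In root, 1 rose and 3 fell of 29 tests in cold, 0 rose and 2 fell of 28 in heat, and 1 rose and 2 fell of 28 in salt, beside 13.2% to 39%, 5.82% to 20% and 2.4% to 21.5% of all clones. The 2 in heat were PIN-II clones at 3 and 27 h, with -0.87 and -0.80. The list median in root heat was 0.03, 0.28 and -0.40 at 3, 9 and 27 h, beside 0.01, 0.00 and 0.01 for all clones.

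A list named vacuolar and storage proteins included clones of chitinase, patatin and vacuolar acid invertase. Whether each of these proteins lies in the vacuole was not checked. Of the list's tests, 4 rose and 0 fell of 17 in leaf cold, beside 16.8% to 22.6% of all clones. In leaf salt 4 rose and 0 fell of 18, beside 0.808% to 11.9% of all clones. All 8 were the 2 clones of ChtA1, a chitinase, with up to 4.52 in cold and 3.55 in salt at 27 h, so these counts show 1 gene. In root cold 2 rose and 1 fell of 20 tests, beside 13.2% to 39% of all clones. Both that rose were ChtA1 at 27 h (2.57 and 2.53), and the 1 that fell was the vacuolar invertase PAIN-1 (-0.63). In root heat 0 of 20 tests passed (0 also at an unadjusted p under 0.05), beside 5.82% to 20% of all clones. In root salt 2 rose and 5 fell of 20, beside 2.4% to 21.5% of all clones, all 5 being clones of pat1, a patatin, with -1.28 to -1.33 at 3 h and -1.74 and -1.55 at 9 h.

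Of cell death and defence genes (WRKY transcription factors, lipoxygenases and PR1B), 10 rose and 4 fell of 32 tests in leaf cold and 8 rose and 1 fell of 19 in root cold, beside 16.8% to 22.6% and 13.2% to 39% of all clones. The 4 that fell in leaf were clones of the lipoxygenase LOX-H1 at 9 h, with -1.58 to -1.83. STWRKY8, a WRKY factor, rose in both tissues at 9 h of cold. Its clones had 1.36 and 1.26 in leaf and 2.73 and 2.97 in root, where VPE2 clone A was 1.82 and -0.90. Clone B was 0.79 in leaf cold at 9 h. In root heat 2 rose of 20, beside 5.82% to 20% of all clones. They were POTLX-3, a lipoxygenase (0.55), and STWRKY8 (1.05), both at 27 h. In leaf heat 0 of 33 passed (0 also at an unadjusted p under 0.05), beside 0.18% to 0.679% of all clones. In leaf salt 0 of 33 passed (2 unadjusted), beside 0.808% to 11.9% of all clones. In root salt 1 fell of 20, beside 2.4% to 21.5% of all clones. The single gene of a ubiquitin list was UbcE2, a ubiquitin-conjugating enzyme. It passed in none of its 18 tests, 3 in each tissue and stress (1 at an unadjusted p under 0.05). Over these 18 comparisons, 0.18% to 39% of all clones were called.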

How the data were processed

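The authors deposited 1 log2 ratio per spot and array, and per the labels the query RNA carried Cy3 and the reference Cy5, with no dye swap. How background was corrected, how arrays were normalized and why spots lack values is not given in the sources used here. The values had been rounded: between -1 and 1 each lies within 0.0015 of log2 of some 2-decimal ratio, and array medians lay between 0 and 0.014. Spotted arrays give no counts. The layout was inferred from the files: each clone sits at 2 spots, at an offset that depends on the position on the array. All 905 annotated pairs lie at the offset for their position. The median r of the 2 spots was 0.806, against -0.004 for random spots. The 2 spots were averaged, which gave 11037 clones with a value.

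Stress and no-stress groups were compared with limma 3.58.1 (R 4.3.3), two-sided and without a block. The fit held all clones and the 36 arrays of a tissue (72 arrays for leaf minus root). A clone was tested where at least 2 of 3 arrays of both groups had a value, and Benjamini-Hochberg adjustment ran over those clones, with a threshold of 0.05. A missing array value was left out and not imputed. The script was tested on simulated data. Of clones with a value, 798 had 1 gene symbol and 83 several, which were not named. Symbols came from the platform annotation and the RefSeq table of assembly SolTub_3.0, used for names only. Product names and sequences of the clones were not used here, so the lists were matched by symbol and synonym in a table written after the values were seen.

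The members, lists and tests were chosen with earlier results of these data known. Named genes are all VPE2 clones, list genes that passed, with at most 2 per direction, tissue and stress, and the 5 genes with the highest and the lowest Pearson r with clone A (at least 60 shared arrays over all, 30 in leaf, 26 in root). UCP, AOX and StWIPK lie outside this rule. Alternatives were a fit of only the groups compared, a replicate block, array weights, stress arrays against 0, either spot alone, array medians subtracted, only clones with a value on every array, and each array left out.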

Additional observations from a re-analysis of the deposited data

Results flagged for a closer look

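At 9 h every leaf cold array of VPE2 clone A lay above the mean of the leaf no-stress arrays and every root cold array below that of the root no-stress arrays, with differences of 1.825 in leaf and -0.901 in root. At 27 h the same held, with 0.816 in leaf and -0.577 in root (2 root cold arrays). The difference between the tissues was not tested, since the gene was picked for it, and at both times the root cold and no-stress arrays overlapped. Groups of 3 arrays are too small for a check of single outlying arrays.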

How the results depend on the processing

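Of the tested values of clone A under the alternatives, 281 of 295 kept their sign and 7 came to pass. All 120 of its untested cold and root heat values kept theirs, but the gene was picked for these values. The alternatives reuse the same arrays, so those kept signs are a description only. For clone B 113 of 123 tested and 36 of 38 untested values kept their sign. With array weights, leaf heat passed at 9 h (-1.384, adjusted p = 0.013) and 27 h (-1.194, 0.026). With stress arrays against 0, leaf heat 9 h was -0.801 (0.041), and leaf salt 1.105, 0.976 and 1.033 at 3, 9 and 27 h (0.00387, 0.00309, 0.00158). With only the compared groups fitted, leaf salt 3 h passed at 0.916 (0.0125). Root salt changed sign at 9 h against 0 (0.195) and at 27 h with array weights (-0.034). The cause was not tested.

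Leaving out 1 array at a time changed no call of clone A. The ranges were -0.363 to 0.508, -0.713 to -0.016 and -0.133 to 0.13 for root salt at 3, 9 and 27 h, and -0.239 to 0.051 for its mean. They were -0.472 to 0.058 for the leaf heat effect at 27 h less 3 h and -0.491 to 0.38 for that of root salt. The leaf heat mean ran from -1.247 to -1.029 (adjusted p 0.000121 to 0.00223) and the leaf salt mean from 0.516 to 0.769 (0.00533 to 0.0446). For clone B, leaf heat 3 h ran from -0.008 to 0.234, 9 h from -0.052 to 0.432, and its mean from -0.107 to 0.054. Its other changed signs were -0.052 (heat 3 h, first spot), -0.205 (heat 9 h, against 0), and with the second spot -0.212 (heat 9 h) and -0.021 (salt 27 h). Its untested leaf cold 27 h value, -0.043, turned to 0.047 against 0 and 0.04 without cold replicate 1, and its leaf cold 9 h value was 0.247 with the second spot.

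With group means subtracted, same-numbered arrays correlated with a median r of 0.202 (-0.053 to 0.521, 45 of 54 over 0.1). This is a hint from the data that numbers are shared. Other-numbered arrays had -0.108 (6 of 108 over 0.1). The subtraction pushes these below 0 where the same-numbered r is above it, so they are not separate evidence. Every same-numbered pair was over 0.1 in only 11 of 18 comparisons and the labels do not say what the number marks, so it was not taken to pair samples. With the number as a block, leaf heat 9 h was -1.231 (adjusted p = 0.122) and no call of VPE2 changed, while calls over all clones at that time were 25 in place of 17.

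Counts of called clones moved by over 1.5 times under some alternative in 21 of 25 comparisons. They ran from 12 to 887 (64 as fitted), 0 to 685 (17) and 0 to 567 (64) for leaf heat at 3, 9 and 27 h, 38 to 816 (77), 305 to 2758 (706) and 768 to 2768 (1175) for leaf salt, and 510 to 1259 (767) for the leaf heat mean. For root heat they ran from 241 to 2422 (651), 138 to 1838 (518) and 121 to 3652 (1795), for root salt from 1037 to 3804 (1888), 193 to 2071 (384) and 84 to 1731 (219), for leaf cold from 887 to 2990 (1578), 1281 to 3947 (2124) and 1364 to 3947 (2077), and for root cold at 3 and 9 h from 771 to 2950 (1202) and 1759 to 4483 (2334). For 27 h less 3 h they ran from 0 to 103 (12) in leaf salt and 96 to 485 (249) in root salt, and for salt in leaf less root from 215 to 800 (331).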
